A study of Mus musculus with 18 samples.

Results

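The de novo lipogenesis genes described here are 10 genes chosen by symbol: Acly, Me1, Acaca, Acacb, Fasn, Elovl6, Scd1, Srebf1, Thrsp and Pnpla3. Each symbol matched 1 Ensembl mouse gene, so the set is 10 of the 28030 genes in the deposited count table. RNA was sequenced from hepatocytes of wild-type male C57BL/6J mice aged 12 weeks and fed a chow diet. Hepatocytes of the pericentral (PC) or the periportal (PP) side of the liver lobule were isolated by digitonin perfusion, in which a detergent opens the cells of one side so that those of the other can be collected. All mice had been trained for 3 days to fast for 16 h overnight and to feed for 8 h by day. Fed mice had eaten for 4 h with 20% sucrose in the drinking water and were killed at clock hour 13. Fasted mice were killed after 8 h without food, at clock hour 21, or after 24 h, at clock hour 13 of the next day. The 20% sucrose is recorded for the fasted groups as well as for the fed ones. Each of the 6 groups of zone and state held 3 libraries. In the 8 h groups the length of fasting and the clock hour cannot be told apart. The labels do not say whether libraries with the same replicate number came from one mouse or one day, so p-values measure the spread between these libraries only.

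In de novo lipogenesis the liver turns carbohydrate into fatty acids. Citrate leaves the mitochondria and is split to acetyl-CoA, which is carboxylated to malonyl-CoA and built into palmitate, and palmitate is then elongated and desaturated. The hepatic pathway is known to be switched on by feeding through insulin, which acts on the transcription factor SREBP-1c, and through glucose, which acts on the transcription factor ChREBP.

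The 18 libraries held 18359911 to 26384358 estimated counts and 15251 to 15958 genes with a count, and mitochondrial genes took 6.93% to 9.80% of the counts. Summed levels of 6 pericentral markers were 9446 to 18573 CPM (normalised counts, scaled to one library total) in PC libraries and 421 to 2049 in PP libraries. For 5 periportal markers the sums were 2628 to 4668 in PC and 6915 to 10766 in PP. The sums of the zones did not overlap, with Cyp2e1 and Ass1 as their largest parts. Glul, a marker of the innermost pericentral cells, was 111 CPM in PC 24 h replicate 2, against 928 and 707 in its mates. PP libraries held 62.6 to 175. The other pericentral markers were lower there too, among them Oat (257 against 1055 and 1158) and Slc1a2 (8.82 against 241 and 256). Of the periportal markers, Cyp2f2 (793 against 345 and 322), Hal (466 against 243 and 196) and Sds (215 against 101 and 94.8) were higher. Gls2 was also higher there, and Ass1 was lower. Fed PP replicate 3 stood apart from its mates in the opposite sense to feeding: 8 genes known to respond to fasting summed to 5527 CPM there, against 2695 and 2866. Values without fed PP replicate 3 stand beside the PP changes of the 10 genes, and without PC 24 h replicate 2 the number of the 10 called after 24 h in PC stayed at 9.

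The 250 bases before a transcription start in RefSeq are shown for 4 of the genes whose levels fell with fasting. In these stretches, letters recognised by NF-Y (CCAAT boxes) and by SREBP (TCACCC, the core of one form of sterol regulatory element) could be looked for. The GENCODE annotation, used below for gene coordinates, starts Thrsp at chr7:97417730. That base lies inside the window shown, and both CCAAT matches of Thrsp fall within the GENCODE gene. The Srebf1 window shown also lies inside its GENCODE gene, which starts at chr11:60222581. Sequences are from RefSeq on build GRCm38.p6, written 5′ to 3′ along the gene, with each match to CCAAT or TCACCC on either strand in capitals.
Fasn (chr11:120824548-120824797, minus strand): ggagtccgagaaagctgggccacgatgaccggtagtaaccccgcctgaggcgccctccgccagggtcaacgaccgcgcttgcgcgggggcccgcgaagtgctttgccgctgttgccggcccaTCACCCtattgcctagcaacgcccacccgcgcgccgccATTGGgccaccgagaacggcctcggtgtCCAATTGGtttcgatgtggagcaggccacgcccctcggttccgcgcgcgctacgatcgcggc
Srebf1, one of its 3 entries (chr11:60210472-60210721, minus strand): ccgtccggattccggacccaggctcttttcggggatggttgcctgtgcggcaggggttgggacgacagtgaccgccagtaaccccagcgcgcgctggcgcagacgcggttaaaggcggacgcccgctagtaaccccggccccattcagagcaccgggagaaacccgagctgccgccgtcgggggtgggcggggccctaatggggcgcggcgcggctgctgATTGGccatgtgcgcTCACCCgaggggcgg
Thrsp (chr7:97417551-97417800, minus strand): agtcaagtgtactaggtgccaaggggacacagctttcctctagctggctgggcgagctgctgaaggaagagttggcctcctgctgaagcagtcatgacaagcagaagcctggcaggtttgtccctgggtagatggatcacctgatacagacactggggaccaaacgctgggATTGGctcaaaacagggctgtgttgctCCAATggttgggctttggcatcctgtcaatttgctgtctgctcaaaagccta
Pnpla3 (chr15:84167566-84167815, plus strand): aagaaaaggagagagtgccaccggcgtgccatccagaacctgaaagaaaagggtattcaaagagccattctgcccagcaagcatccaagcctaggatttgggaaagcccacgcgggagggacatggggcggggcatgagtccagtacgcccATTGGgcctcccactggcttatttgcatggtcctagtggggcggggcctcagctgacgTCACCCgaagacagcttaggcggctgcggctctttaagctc
The promoter table held 12 entries for 9 of the 10 genes. A gene was counted where any 1 of its entries matched, whereas the percentages below are of single entries. Me1 and Srebf1, with several entries, therefore had more room for a match. CCAAT occurred upstream of 6 of the 9 and in 33.8% of all 32851 entries. TCACCC occurred upstream of 4 of the 9 and in 13.8% of all entries. Fasn, Srebf1 and Pnpla3 held both in 1 entry, as did 4.3% of all entries. Acly, Acaca and Elovl6, which are not shown and whose levels also fell with fasting, held neither. The only Acaca entry (chr11:84195188-84195437) lies inside its GENCODE gene, which starts at chr11:84129672. So does the only Acacb entry (chr5:114165268-114165517), counted for CCAAT, in a gene that starts at chr5:114146535. The Me1 entry with CCAAT lies inside its gene too. What these windows hold or lack does not describe the bases before the GENCODE starts of these genes. The GC box GGGCGG was present upstream of 4 of the 9 and in 32.7% of all entries. No match of one of these motifs shared bases with a match of another, and a pair of CCAAT matches on opposite strands shared bases in Fasn. The E-box CACGTG was found in none of the 12 entries and in 6.0% of all. These matches describe letters in a window and were chosen for display with the sequences in view.

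Most of these transcripts were abundant in fed hepatocytes and scarce after fasting. The quasi-likelihood test of edgeR, adjusted over 12477 genes, called 7 of the 10 lower after 8 h and 9 of the 10 lower after 24 h in PC hepatocytes, where 6.57% and 11.1% of all genes tested were called lower. In PP hepatocytes it called 6 and 9 lower, where 6.85% and 10% of all genes were called lower. None was called higher in any of these comparisons. The median log2 fold change of the 10 was -2.57 and -3.58 in PC and -1.78 and -3.44 in PP, while the median of all genes tested lay between -0.00 and 0.01. Without fed PP replicate 3, the PP counts were 7 and 9 and the medians -2.19 and -3.86. In RNA from many cells at once, fewer cells of a type and less RNA per cell cannot be told apart. All 10 genes passed the filter on low counts, Pnpla3 with as few as 4 counts in a fasted library.

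**Figure D1:**
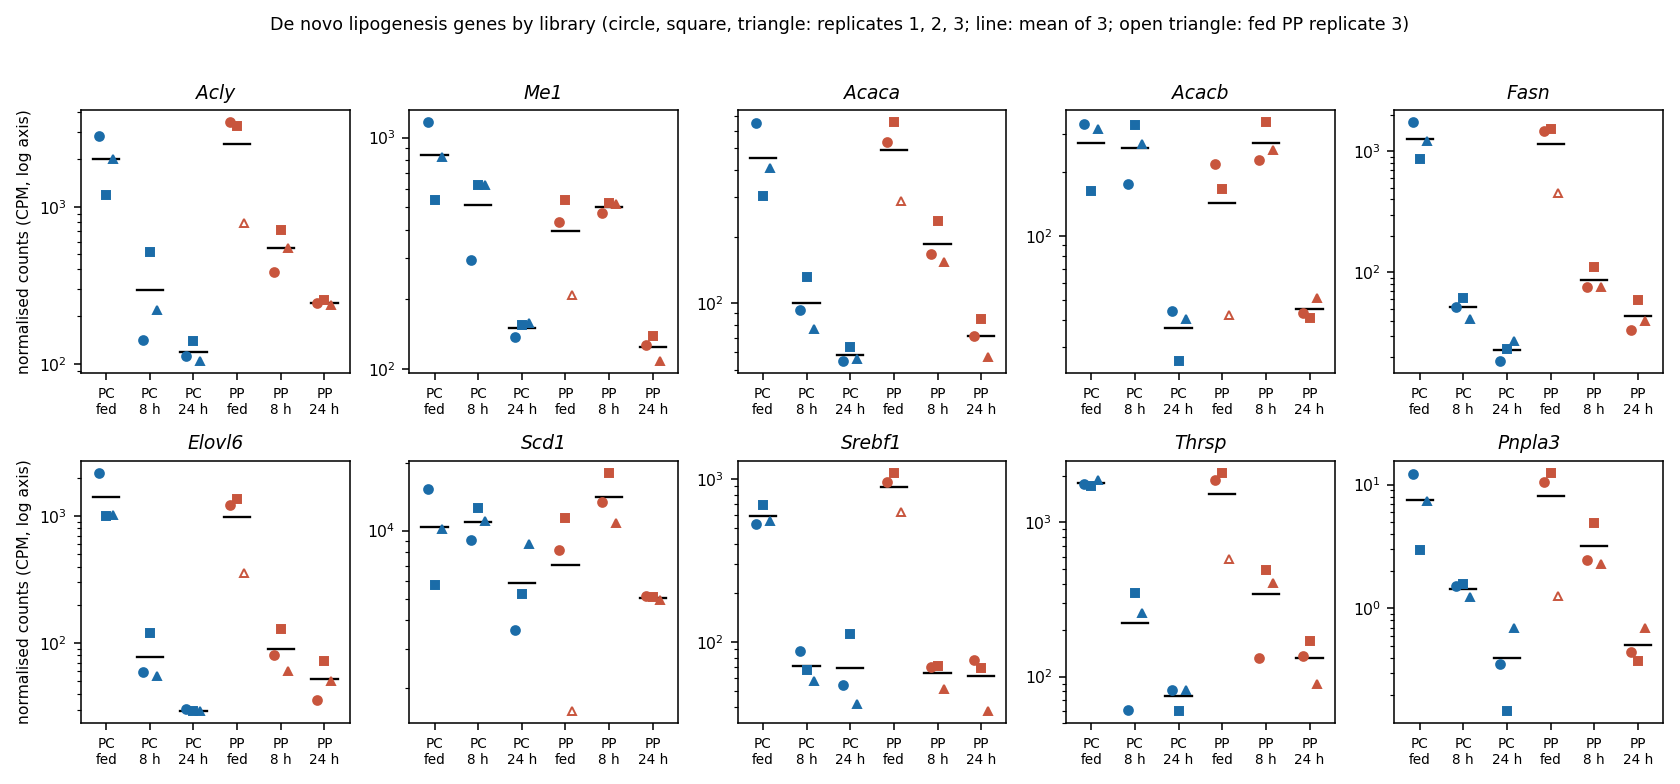
Normalised counts (CPM, log axis) of the 10 genes in each of the 18 libraries, by zone and state, with the mean of each group as a line. Fed PP replicate 3, the open triangle, is the lowest of its group in 10 of 10 genes.

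Acly encodes ATP citrate lyase, which makes cytosolic acetyl-CoA from citrate (chr11:100476353-100528000, minus strand, in the GENCODE annotation of GRCm38). It was measured at 2816, 1179 and 2007 CPM in the fed PC libraries, at 142, 517 and 221 after 8 h and at 112, 139 and 104 after 24 h. In PP hepatocytes the values were 3456, 3286 and 785 when fed, 383, 713 and 546 after 8 h and 242, 256 and 236 after 24 h. Every fasted library lay below every fed library of its zone. The log2 fold change at 24 h was -4.08 (SE 0.59, edgeR adjusted p = 0.000297) in PC and -3.36 (SE 0.57, adjusted p = 0.00110) in PP. At 8 h it was -2.77 (SE 0.55, adjusted p = 0.00419) in PC and -2.20 (SE 0.54, adjusted p = 0.0150) in PP. The PP call at 8 h was lost without fed PP replicate 1 or 2 or PP 8 h replicate 1 or 3 (edgeR adjusted p = 0.0512 to 0.0614) and, in a fit of these groups alone, stood at adjusted p = 0.0712. Without fed PP replicate 3 the PP change at 8 h was -2.62 (edgeR adjusted p = 0.00210), and that at 24 h became -3.79.

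Me1, cytosolic malic enzyme, supplies NADPH for fatty acid synthesis (chr9:86581371-86695953, minus strand). It was called lower than fed at 24 h but not at 8 h. In PC hepatocytes it was 1166, 539 and 828 CPM when fed, 296, 622 and 622 after 8 h and 137, 154 and 158 after 24 h. In PP hepatocytes it was 432, 539 and 208 CPM when fed, 472, 520 and 514 after 8 h and 127, 138 and 108 after 24 h. The fed and 8 h libraries overlapped in both zones, and the 24 h libraries lay below both. The change at 8 h was not called in PC (log2 fold change -0.72, 95% interval -1.44 to 0.00, edgeR adjusted p = 0.180) or PP (0.35, interval -0.37 to 1.07, adjusted p = 0.547). Between 8 h and 24 h Me1 fell by 1.78 on the log2 scale in PC (SE 0.34, edgeR adjusted p = 0.00535) and by 2.02 in PP (SE 0.34, adjusted p = 0.00340). Against fed, the 24 h change was -2.50 in PC (SE 0.35, edgeR adjusted p = 0.000160) and -1.66 in PP (SE 0.34, adjusted p = 0.00317), or -1.97 in PP without fed PP replicate 3 (adjusted p = 0.000468). Exons of Me1 overlap an antisense gene, and since use of strand is not given in the sources used here, reads of the pair cannot be told apart.

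Acaca and Acacb encode the acetyl-CoA carboxylases ACC1 and ACC2. ACC1 makes the cytosolic malonyl-CoA used for synthesis, and ACC2 sits at the mitochondrion, where malonyl-CoA restrains the import of fatty acids. Acaca (chr11:84129672-84401651, plus strand) was 650, 305 and 408 CPM in fed PC libraries, 93.0, 131 and 76.3 after 8 h and 54.9, 63.6 and 56.2 after 24 h. In PP libraries it was 534, 656 and 288 CPM when fed, 167, 235 and 153 after 8 h and 71.3, 84.6 and 57.5 after 24 h. The 3 states did not overlap in either zone. Acaca fell by 2.19 on the log2 scale at 8 h in PC (SE 0.32, edgeR adjusted p = 0.000347) and by 1.41 in PP (SE 0.31, adjusted p = 0.00756), or by 1.68 in PP without fed PP replicate 3 (adjusted p = 0.00196). At 24 h the log2 fold change was -2.96 in PC (SE 0.33, edgeR adjusted p = 3.14e-05) and -2.79 in PP (SE 0.33, adjusted p = 5.51e-05), or -3.07 in PP without fed PP replicate 3. Between 8 h and 24 h the change was -1.38 in PP (SE 0.32, edgeR adjusted p = 0.0169), a call lost without PP 8 h replicate 2 (adjusted p = 0.0724) or PP 24 h replicate 3 (adjusted p = 0.0700). It was -0.78 in PC and was not called (edgeR adjusted p = 0.135).

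Acacb (chr5:114146535-114250761, plus strand) followed another course. Its fed PC libraries held 335, 162 and 318 CPM, those after 8 h 175, 330 and 268, and those after 24 h 44.1, 25.8 and 40.7. In PP the values were 218, 166 and 42.5 CPM when fed, 227, 341 and 253 after 8 h and 43.4, 41.1 and 50.8 after 24 h. The fed and 8 h libraries overlapped in PC, whereas in PP all 3 libraries at 8 h lay above the fed ones, and fed PP replicate 3 lay among those at 24 h. At 8 h no change was called in PC (log2 fold change -0.08, 95% interval -1.07 to 0.91, edgeR adjusted p = 0.942) or PP (0.95, interval -0.05 to 1.95, adjusted p = 0.202, and 0.52 without fed PP replicate 3, adjusted p = 0.367). From 8 h to 24 h Acacb fell by 2.81 on the log2 scale in PC (SE 0.49, edgeR adjusted p = 0.00370) and by 2.60 in PP (SE 0.49, adjusted p = 0.00712). Against fed, the 24 h change was -2.88 in PC (SE 0.49, edgeR adjusted p = 0.00103) and -1.66 in PP (SE 0.47, adjusted p = 0.0250). The PP call was lost with no filter on low counts, in a fit of these groups alone, in limma-voom and without fed PP replicate 1 or 2 or any 1 PP 24 h replicate (adjusted p = 0.0550 to 0.151), and without fed PP replicate 3 it stood at -2.09 (edgeR adjusted p = 0.000736).

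Levels of the carboxylases were set side by side as CPM per kilobase of the longest annotated transcript, as a description. The ratio of Acacb to Acaca in single libraries was 0.558, 0.575 and 0.844 in fed PC, 2.04, 2.73 and 3.80 after 8 h, and 0.870, 0.439 and 0.784 after 24 h. In PP it was 0.442, 0.274 and 0.160 when fed, 1.47, 1.57 and 1.79 after 8 h, and 0.659, 0.526 and 0.956 after 24 h. Acacb exceeded Acaca per kilobase in all 6 libraries at 8 h and in none of the other 12.

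Fasn encodes fatty acid synthase, which assembles palmitate (chr11:120805846-120824547, minus strand). It was 1734, 864 and 1211 CPM in fed PC libraries, 52.0, 61.4 and 41.4 after 8 h and 18.6, 23.2 and 27.2 after 24 h. In PP libraries it was 1457, 1527 and 452 CPM when fed, 75.3, 111 and 75.2 after 8 h and 33.6, 58.9 and 39.5 after 24 h. No libraries of different states overlapped within a zone, and the mean after 24 h was 1.81% of the fed mean in PC and 3.84% in PP. Its log2 fold change at 8 h was -4.62 in PC (SE 0.44, edgeR adjusted p = 1.27e-05) and -3.71 in PP (SE 0.42, adjusted p = 5.83e-05). At 24 h it was -5.79 in PC (SE 0.47, edgeR adjusted p = 2.95e-06) and -4.70 in PP (SE 0.44, adjusted p = 9.39e-06). Fed PP replicate 3, though low, was above all fasted PP libraries, and without it the PP changes were -4.09 and -5.09. From 8 h to 24 h the change was -1.16 in PC (edgeR adjusted p = 0.0773) and -0.99 in PP (adjusted p = 0.144), and both were called without fed PP replicate 3 (edgeR adjusted p = 0.0143 and 0.0356).

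Elovl6 lengthens palmitate to stearate (chr3:129532355-129638495, plus strand). Its PC libraries held 2195, 1004 and 1024 CPM when fed, 59.4, 119 and 54.9 after 8 h and 30.3, 29.0 and 29.1 after 24 h. Its PP libraries held 1231, 1348 and 359 CPM when fed, 79.9, 128 and 60 after 8 h and 35.4, 72.5 and 50 after 24 h. Fed libraries lay above all fasted ones in each zone, while the 8 h and 24 h libraries overlapped in PP. At 8 h the log2 fold change was -4.18 in PC (SE 0.55, edgeR adjusted p = 0.000185) and -3.46 in PP (SE 0.53, adjusted p = 0.000737). After 24 h PC stood at -5.58 (SE 0.59, edgeR adjusted p = 2.81e-05) and PP at -4.22 (SE 0.55, adjusted p = 0.000173). The PP values were -3.85 and -4.62 without fed PP replicate 3. Its exons overlap an antisense gene, with the same limit on strand as for Me1.

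Scd1 encodes stearoyl-CoA desaturase, which makes oleate and palmitoleate (chr19:44394455-44407879, minus strand). It was not called against fed in either zone at either time. The fed PC libraries held 15275, 5762 and 10135 CPM, those after 8 h 9044, 12638 and 11003, and those after 24 h 3636, 5211 and 8735. In PP the values were 8187, 11390 and 1583 CPM when fed, 13433, 18050 and 10791 after 8 h and 5116, 5078 and 4907 after 24 h. The fed libraries overlapped those of both other states in each zone, and fed PP replicate 3 was the lowest of the 18 libraries. At 24 h the log2 fold change was -0.83 in PC (95% interval -1.98 to 0.33, edgeR adjusted p = 0.300) and -0.49 in PP (interval -1.64 to 0.66, adjusted p = 0.578), or -0.97 in PP without fed PP replicate 3 (adjusted p = 0.0935). At 8 h it was 0.07 in PC (interval -1.08 to 1.22, edgeR adjusted p = 0.956) and 1.0 in PP (interval -0.16 to 2.16, adjusted p = 0.248), or 0.53 in PP without that library (adjusted p = 0.433). The change from 8 h to 24 h in PP was -1.49 (interval -2.66 to -0.31, edgeR adjusted p = 0.113). Without fed PP replicate 3, which is in neither state of this step, it was called at the same -1.49 (edgeR adjusted p = 0.0176). Per kilobase, the ratio of Scd1 to Fasn was 7.28 to 18.3 over the 6 fed libraries and 179 to 668 over the 12 fasted ones.

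Srebf1 encodes the SREBP-1 transcription factors (chr11:60199089-60222581, minus strand). It was low by 8 h, and no further change was called after that. In PC libraries it was 528, 695 and 547 CPM when fed, 87.8, 67.3 and 57.9 after 8 h and 54.2, 112 and 41.9 after 24 h. In PP libraries it was 953, 1090 and 624 CPM when fed, 70.3, 71.8 and 51.8 after 8 h and 78.0, 69.0 and 37.6 after 24 h. Fed libraries lay far above all fasted ones, fed PP replicate 3 included, and the 8 h and 24 h libraries overlapped in each zone. The log2 fold change at 8 h was -3.06 in PC (SE 0.37, edgeR adjusted p = 7.9e-05) and -3.78 in PP (SE 0.38, adjusted p = 1.91e-05). At 24 h it was -3.09 in PC (SE 0.37, edgeR adjusted p = 4.89e-05) and -3.85 in PP (SE 0.38, adjusted p = 1.26e-05). Without fed PP replicate 3 the PP changes were -3.98 and -4.06, and without PC 24 h replicate 2 the PC change at 24 h was -3.62. Between 8 h and 24 h the difference was -0.03 in PC (95% interval -0.77 to 0.71) and -0.07 in PP (interval -0.81 to 0.67), and neither was called (edgeR adjusted p = 0.969 and 0.939). Counts per gene do not separate the SREBP-1a and SREBP-1c transcripts, and exons of Srebf1 overlap those of Rai1 on the opposite strand and of Mir6922.

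Thrsp, also called Spot 14, is a small protein known to promote lipogenesis (chr7:97412938-97417730, minus strand). It was steady among fed PC libraries at 1778, 1718 and 1883 CPM, and was 60.8, 348 and 260 after 8 h and 82.2, 59.4 and 81.5 after 24 h. In PP libraries it was 1894, 2104 and 579 CPM when fed, 131, 490 and 406 after 8 h and 136, 171 and 90.0 after 24 h. Replicate 1 was the lowest of the 8 h libraries in both zones, and every fasted library lay below the fed libraries of its zone. At 24 h the log2 fold change was -4.59 in PC (SE 0.69, edgeR adjusted p = 0.000425) and -3.53 in PP (SE 0.65, adjusted p = 0.00212), or -3.93 in PP without fed PP replicate 3. At 8 h it was -3.01 in PC (SE 0.64, edgeR adjusted p = 0.00633) and -2.15 in PP (SE 0.62, adjusted p = 0.0321), or -2.54 in PP without fed PP replicate 3 (adjusted p = 0.0156). The PP call at 8 h was lost with no filter on low counts, in a fit of these groups alone, in limma-voom and without fed PP replicate 1 or 2 or PP 8 h replicate 1 or 3 (adjusted p = 0.0580 to 0.115).

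Pnpla3 encodes a lipid droplet protein with lipase activity whose gene is a known target of SREBP-1c (chr15:84167837-84187236, plus strand). It was the scarcest of the set. PC libraries held 12.2, 2.95 and 7.40 CPM when fed, 1.52, 1.58 and 1.24 after 8 h and 0.352, 0.147 and 0.692 after 24 h. PP libraries held 10.4, 12.5 and 1.25 CPM when fed, 2.46, 4.85 and 2.28 after 8 h and 0.447, 0.374 and 0.690 after 24 h. The states did not overlap in PC, and in PP only fed PP replicate 3 fell below the 8 h libraries. Behind these values stood 75 to 352 counts in fed PC libraries and 4 to 15 counts in the 24 h libraries of both zones. At 24 h the log2 fold change was -4.29 in PC (SE 0.81, edgeR adjusted p = 0.00173) and -3.98 in PP (SE 0.79, adjusted p = 0.00278), and limma-voom called neither (adjusted p = 0.0719 and 0.137). Without fed PP replicate 3 the PP value at 24 h was -4.50. At 8 h it was -2.38 in PC (SE 0.69, edgeR adjusted p = 0.0327) and -1.33 in PP (SE 0.65, adjusted p = 0.203), the latter being called without fed PP replicate 3 (-1.84, edgeR adjusted p = 0.0231). The PC call at 8 h was lost with no filter on low counts, in limma-voom and without fed PC replicate 1 or 3 or any 1 PC 8 h replicate (adjusted p = 0.0658 to 0.171). A processed transcript on the same strand overlaps its exons.

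**Figure D2:**
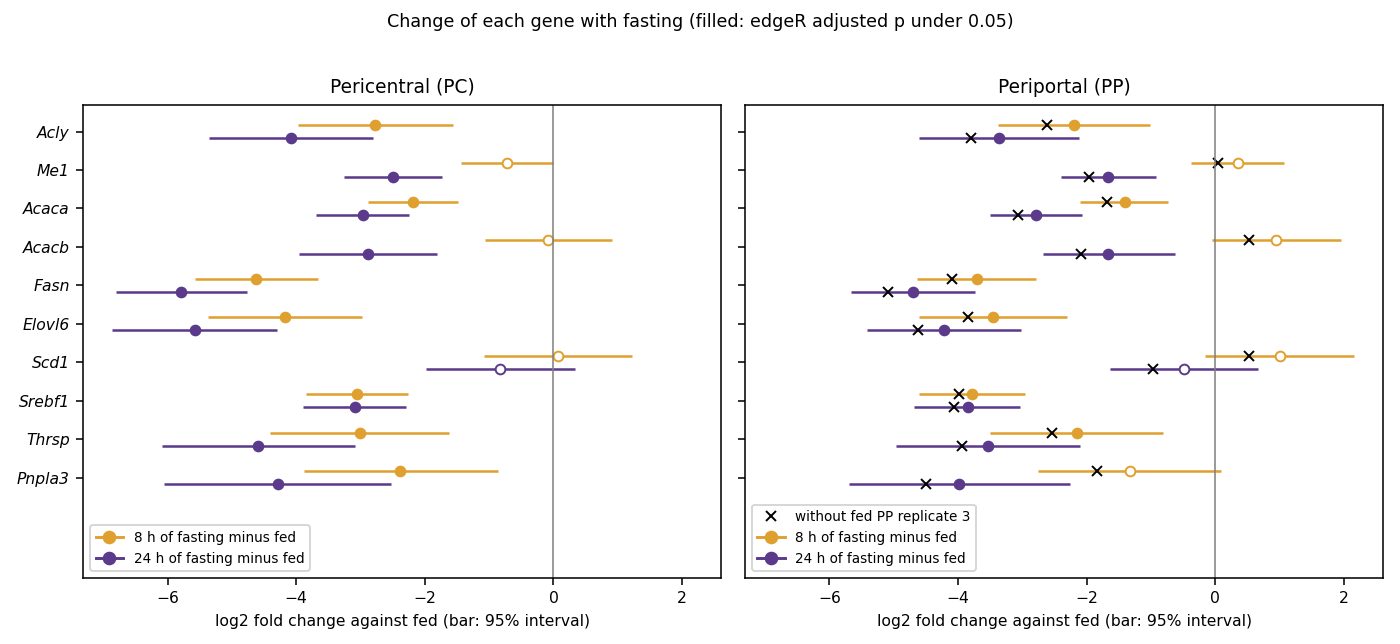
Log2 fold change of each gene against fed at 8 h and 24 h in PC (left) and PP (right) hepatocytes, with 95% intervals, filled where edgeR called the change. Crosses give the PP values without fed PP replicate 3, which are lower than the plotted values in all 10 genes at both times.

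Set against the fed mean of the same zone, the genes followed different courses. Fasn stood at 4.06% in PC and 7.61% in PP after 8 h, Elovl6 at 5.52% and 9.12%, and Srebf1 at 12.0% and 7.27%. Acly, Thrsp, Acaca and Pnpla3 stood between 12.4% and 39.7% at that time. Me1 was at 60.8% and 128%, Acacb at 94.8% and 192%, and Scd1 at 105% and 200%, with none of these 6 differences called. After 24 h, Scd1 kept 56.4% and 71.4%, and the other 9 genes stood between 1.81% and 31.7%. The PP percentages use the fed mean of 3 libraries, fed PP replicate 3 included. The order of the 6 group means, from high to low, was fed PP, fed PC, PP 8 h, PC 8 h, PP 24 h and PC 24 h for Acly, Acaca and Pnpla3, and the same with the fed groups exchanged for Fasn, Elovl6 and Thrsp. Libraries of the top pair overlapped in all 10 genes. In the step from 8 h to 24 h, Me1 and Acacb were called lower in PC, where 4.51% of all genes were called lower, and Me1, Acaca and Acacb in PP, where 4.24% were. Without fed PP replicate 3, 4 genes in PC and 6 in PP were called in that step. Of 12727 genes tested in that setting, 1125 were called in PC and 900 in PP, in either direction. With every library kept, 1212 and 931 of 12477 were called. Fed PP replicate 3 is in neither group of these comparisons, and it acts on them only through the fit shared by all libraries.

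**Figure D3:**
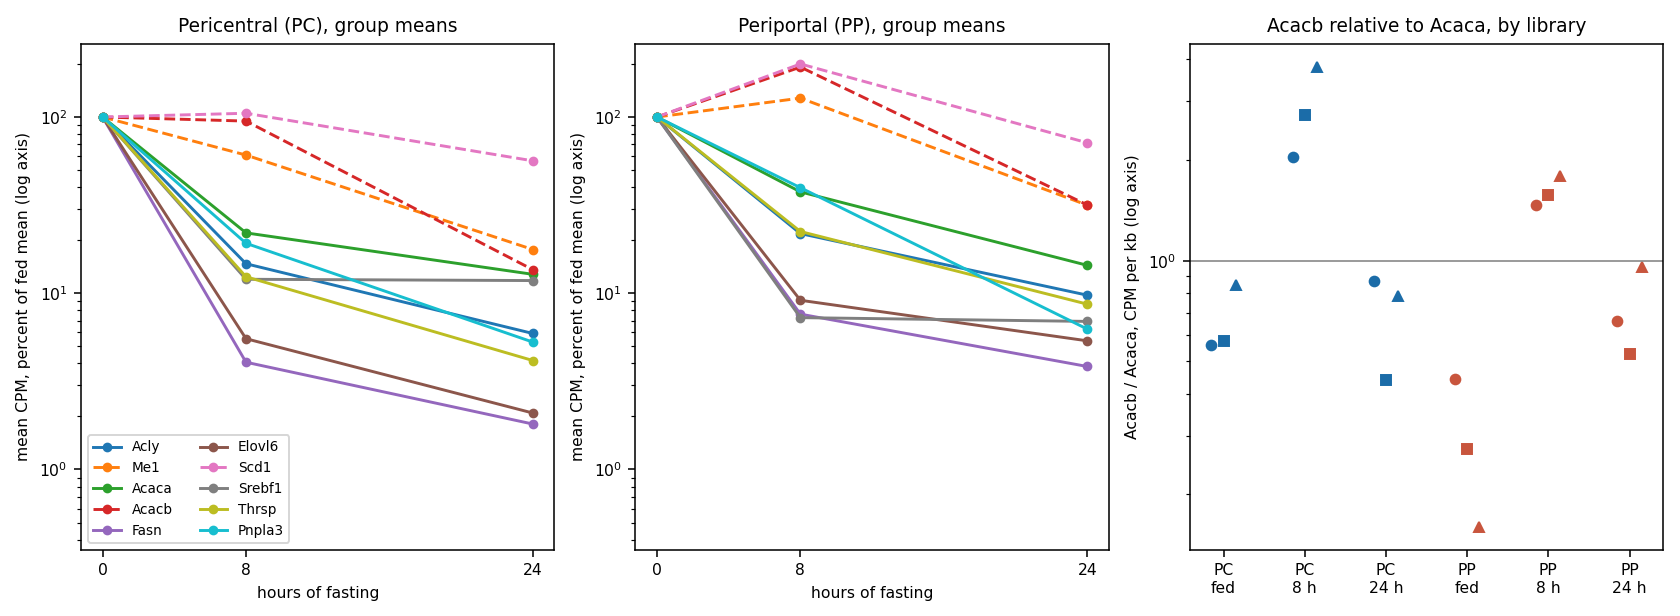
Left and middle, mean CPM of each gene at 0, 8 and 24 h of fasting as a percent of the fed mean of its zone (log axis), with Me1, Acacb and Scd1 dashed. Right, the ratio of Acacb to Acaca (CPM per kilobase, log axis) in each library, above 1 only in the 6 libraries at 8 h.

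PC and PP hepatocytes were compared in each state to ask whether the genes were zoned. None of the 10 was called in any state by edgeR, where 8.01%, 7.14% and 4.17% of all genes were called in either direction when fed, after 8 h and after 24 h. Before adjustment, 1 of the 10 had p under 0.05 in each state, as did 21%, 20.9% and 16.8% of all genes. The median PP minus PC log2 difference was -0.19 when fed, or 0.19 without fed PP replicate 3, and was 0.50 after 8 h and 0.35 after 24 h. Without PC 24 h replicate 2, none of the 10 was called after 24 h and the median at that time was 0.36.

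The fed gene nearest to a call was Me1, which was lower in PP by 1.10 on the log2 scale (95% interval of PP minus PC -1.83 to -0.38, edgeR adjusted p = 0.0570). DESeq2 called it (adjusted p = 0.00545), as did edgeR without fed PC replicate 2, fed PP replicate 2 or PC 8 h replicate 1 (adjusted p = 0.0283 to 0.0334), whereas without fed PP replicate 3 the difference was -0.80 (edgeR adjusted p = 0.163). After 8 h Acaca was 0.89 higher in PP (interval 0.21 to 1.57, edgeR adjusted p = 0.106, DESeq2 adjusted p = 0.0261). The 3 PP libraries also lay above the 3 PC libraries for Acaca, Fasn and Pnpla3 after 8 h, and for Acly, Fasn, Elovl6 and Thrsp after 24 h, an arrangement that 12.1% and 10.5% of all genes tested showed at these times. Fasn differed by 0.76 (interval -0.08 to 1.60, edgeR adjusted p = 0.280) and 0.94 (interval 0.09 to 1.78, adjusted p = 0.232) at these times, and Acly by 1.05 after 24 h (interval -0.10 to 2.19, edgeR adjusted p = 0.336). DESeq2 called none of the 10 after 24 h, and a fit of the 24 h groups alone called Acly (edgeR adjusted p = 0.00387). For Srebf1, the PP minus PC difference was 0.59 when fed (interval -0.15 to 1.33), -0.14 after 8 h (interval -0.88 to 0.61) and -0.18 after 24 h (interval -0.92 to 0.57), the last being 0.36 without PC 24 h replicate 2. These intervals leave room for differences of 2-fold or more in several genes.

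Whether fasting changed a gene differently in the zones was tested by the difference of the changes, PP minus PC. None of the 10 was called by edgeR at 8 h, at 24 h or in the step between, where 0%, 0.0160% and 0% of all genes were called. Before adjustment, 1, 0 and 0 of the 10 had p under 0.05, beside 5.45%, 7.71% and 5.99% of all genes, the 1 being Me1 at 8 h (1.07, 95% interval 0.05 to 2.09, edgeR adjusted p = 0.909). DESeq2 called none of them either. The difference was above 0 in 9 of 10 genes at both 8 h and 24 h against fed, with medians of 0.88 and 0.78, and below 0 in Srebf1 (-0.73, interval -1.77 to 0.32, and -0.77, interval -1.81 to 0.28). The medians over all genes tested were 0.01 and -0.01. No share of all genes above 0 is given, and the 9 differences share the same PC and PP libraries, so the counts are descriptions only. Without fed PP replicate 3 the medians were 0.48 and 0.41, with 9 and 6 of the 10 above 0. Without PC 24 h replicate 2 the median at 24 h was 0.85, with 8 of the 10 above 0.

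In some groups a single library was the lowest or the highest for most of the 10 genes. Fed PP replicate 3 was the lowest of its group for 10 of 10 genes, at 10.9% of the mean of its mates for Pnpla3, 16.2% for Scd1, 22.1% for Acacb and 61.1% for Srebf1. Fed PC replicate 2 was the lowest of its group for 9 of 10, the other being Srebf1, for which it was the highest. Among 8 h libraries replicate 2 was the highest for 9 of 10 genes in PC and 10 of 10 in PP. For fed PC replicate 2 and the 8 h libraries no share over all genes tested is given, so these counts are descriptions only. In fed PP replicate 3 the gluconeogenic gene Pck1 was 2198 CPM against 594 and 927 in its mates. Of the 49 other genes of the pathway, 30 were lowest of their group in that library and 12 were highest, while among all genes tested 33.7% were lowest there and 33.2% highest. Insig1 was among the lower ones, at 710 CPM against 1477 and 1372, and Srebf2 among the higher ones, at 60.5 against 46.1 and 44.6. The part of feeding state, mouse or handling in this library was not tested.

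**Figure D4:**
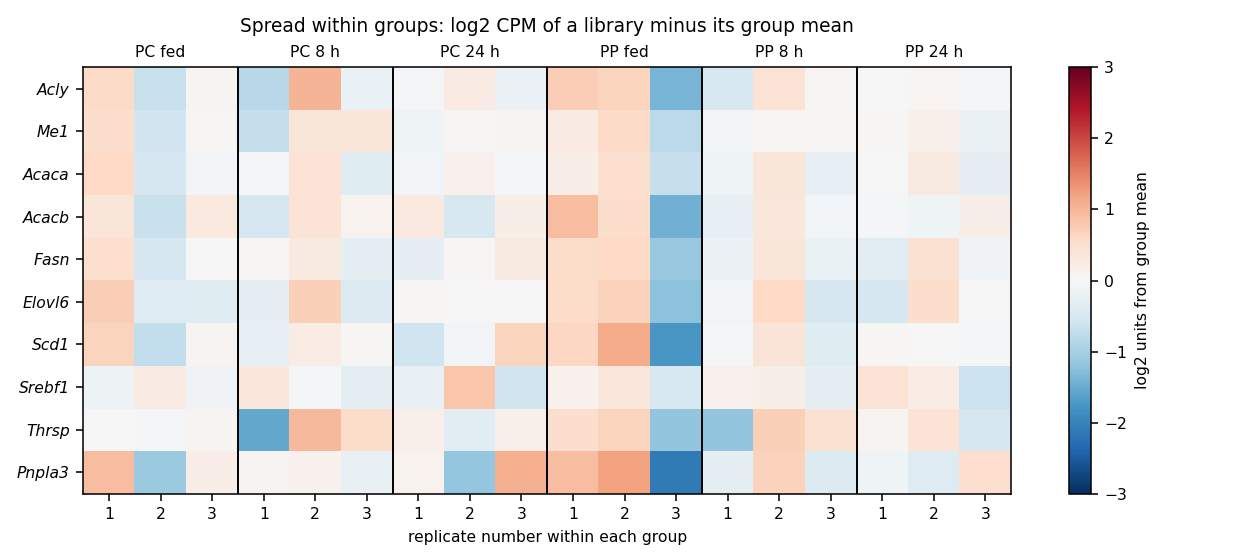
Colour gives the log2 CPM of a library minus the mean of its group (red above, blue below), for 10 genes (rows) and 18 libraries (columns, replicates 1 to 3 of each group). Fed PP replicate 3 is blue in every row, and fed PC replicate 2 lies below its group mean in every row except Srebf1.

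Deviations from the group means gave a Pearson correlation of -0.13 to 0.91 over the 45 pairs of genes and 18 libraries, with a median of 0.74. For log2 CPM itself the range was -0.07 to 0.99 and the median 0.80. The libraries shared by all pairs make these correlations descriptions.

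The other genes of the pathway were taken from 5 lists with 49 genes in all, all 49 of them tested. In PC, 5 were called higher and 10 lower after 8 h, and 4 higher and 13 lower after 24 h. In PP, 6 were called higher and 8 lower after 8 h, and 3 higher and 10 lower after 24 h. In the same comparisons 13.9%, 21.8%, 14.4% and 19.6% of all genes were called in either direction. Without PC 8 h replicate 1 the PC count at 8 h was 9 in all instead of 15. Median log2 fold changes over the 49 were -0.13 and -0.22 in PC and 0.04 and -0.05 in PP, beside medians of -2.57, -3.58, -1.78 and -3.44 for the 10.

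Of the 13 regulators of SREBP, ChREBP and LXR, 3 were called higher and 2 lower after 8 h in PC, and 2 higher and 2 lower in PP. Insig1 and Insig2 hold the SREBP precursors in the endoplasmic reticulum, and they moved in opposite directions. Insig1 fell by 2.53 on the log2 scale at 8 h in PC (SE 0.27, edgeR adjusted p = 2.08e-05) and by 2.31 in PP (SE 0.27, adjusted p = 4.82e-05). Insig2 rose by 2.20 in PC (SE 0.32, edgeR adjusted p = 0.000264) and by 2.66 in PP (SE 0.32, adjusted p = 7.89e-05). In single libraries Insig2 was 74.9, 91.1 and 80.4 CPM in fed PC and 336, 444 and 357 after 8 h, with 94.1, 91.1 and 92.5 in fed PP and 356, 776 and 629 after 8 h. Fed PP replicate 3 did not stand apart for this gene. At 24 h the log2 fold change of Insig1 was -2.31 in PC and -2.12 in PP (edgeR adjusted p = 3.3e-05 and 7.32e-05), and that of Insig2 was 0.84 in PC, which was not called (adjusted p = 0.0602), and 1.59 in PP (adjusted p = 0.00231). The PC value of Insig2 was called without PC 24 h replicate 2 (1.09, edgeR adjusted p = 0.0193), without PP 8 h replicate 1 or PP 24 h replicate 3 (adjusted p = 0.0348 and 0.0355) and by DESeq2 (adjusted p = 0.0187). Mlxipl, which encodes ChREBP, was not called at 8 h (-0.38 in PC and 0.10 in PP) and fell at 24 h, with changes of -1.31 in PC and -1.05 in PP (SE 0.25 in each, edgeR adjusted p = 0.00176 and 0.00862). Srebf2, which encodes the SREBP of cholesterol synthesis, was not called by edgeR in any of the 4 comparisons with fed (log2 fold changes -0.36 to 0.06), except in PC at 24 h without fed PC replicate 2 (-0.50, adjusted p = 0.0248).

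Among 10 genes that supply acetyl-CoA and NADPH, 3 were called lower at 8 h and 5 at 24 h in PC, and 2 and 5 in PP, with none higher. Pklr, liver pyruvate kinase, was not called at 8 h (-0.76 in PC and -0.21 in PP), although without fed PP replicate 3 edgeR called the PC value (adjusted p = 0.0437). It fell at 24 h, with changes of -3.33 and -2.58 (SE 0.35 and 0.34, edgeR adjusted p = 1.6e-05 and 0.000115). Slc25a1, the mitochondrial citrate carrier, differed by -0.37 at 8 h in PC (edgeR adjusted p = 0.0387), a call lost with no filter on low counts, in a fit of these groups alone, with a block on replicate number and without any 1 fed PC replicate, PC 8 h replicate 1 or 2 or PC 24 h replicate 1 (adjusted p up to 0.163). In PC at 24 h it stood at -0.30 and was not called by edgeR, but was called by DESeq2 (adjusted p = 0.0403) and by edgeR without fed PP replicate 3 or PC 8 h replicate 3 (adjusted p = 0.0279 and 0.048).

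Of 9 genes that control malonyl-CoA, Mid1ip1, which encodes a partner of Thrsp and activator of acetyl-CoA carboxylase, moved most. It was 223, 283 and 293 CPM in fed PC and 298, 340 and 259 in fed PP, and lay between 13.5 and 43.5 in the 12 fasted libraries. The log2 fold changes were -3.57 and -3.86 in PC and -3.12 and -3.56 in PP (SE 0.27 to 0.28, edgeR adjusted p at most 4.77e-06), the PC value at 24 h being -4.23 without PC 24 h replicate 2. Prkaa2, a catalytic subunit of the kinase AMPK, which phosphorylates the carboxylases, differed by -0.70 and -0.56 in PC and by -0.78 and -0.75 in PP, all called by edgeR (adjusted p = 0.00436 to 0.0217). The PC call at 24 h was lost without fed PC replicate 1 or PC 24 h replicate 1 or 2 (adjusted p up to 0.117), and the PC call at 8 h without fed PC replicate 1 (adjusted p = 0.0525).

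Among 11 genes of further elongation and desaturation, edgeR called 2 higher (Elovl3 and Elovl5) and 2 lower (Elovl1 and Fads2) at 8 h in PC, and 3 higher (Elovl3, Elovl5 and Hsd17b12) and 1 lower (Fads2) in PP. Of these, Elovl3, Elovl5 and Fads2 are named after their values were seen. Elovl3, an elongase of very long chains, was 20.7, 19.5 and 31.5 CPM in fed PC and 250, 379 and 384 after 8 h, with 5.65, 5.75 and 3.05 in fed PP and 127, 52.3 and 56.9 after 8 h. Its 8 h change was 3.82 in PC (SE 0.73, edgeR adjusted p = 0.00347) and 4.03 in PP (SE 0.77, adjusted p = 0.00361). At 24 h 1 of the 11 was called higher and 3 lower in PC. In PP edgeR called none of them, with 4 at p under 0.05 before adjustment, and DESeq2 called 1. Of all genes tested at 24 h, 34.1% in PC and 32.1% in PP had edgeR p under 0.05 before adjustment. The elongase gene Elovl1 fell by 0.93 at 24 h in PC (SE 0.17, edgeR adjusted p = 0.00118) and differed by -0.41 in PP (adjusted p = 0.105, and called at -0.62 without fed PP replicate 3, adjusted p = 0.0103). Hsd17b12, the ketoacyl reductase of elongation, fell by 0.60 in PC (SE 0.11, edgeR adjusted p = 0.00147) and differed by -0.25 in PP (adjusted p = 0.143). At 8 h it differed by 0.35 in PP (edgeR adjusted p = 0.0497), a call kept in 7 of 28 other settings, and without fed PP replicate 3 it was 0.26 (adjusted p = 0.194). Of 6 genes of mitochondrial fatty acid synthesis, edgeR called 1 lower at 8 h, Mcat, named after its values were seen (-0.33 in PC and -0.42 in PP, adjusted p = 0.0372 and 0.0103), and edgeR and DESeq2 called none at 24 h in either zone, with 2 in PC and 1 in PP at p under 0.05 in edgeR before adjustment.

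**Figure D5:**
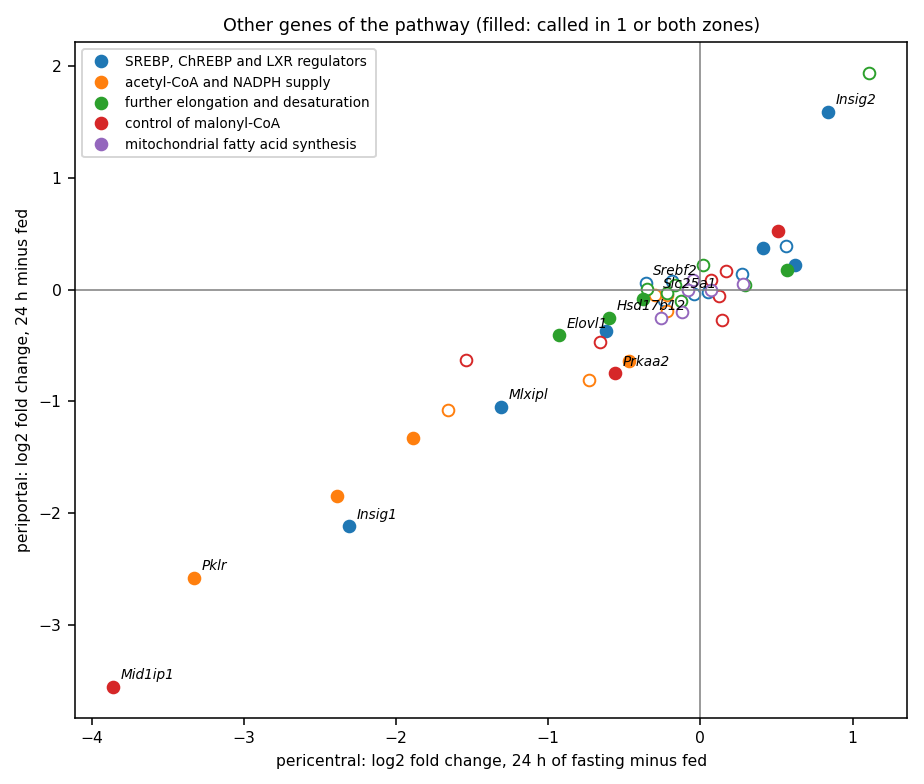
Log2 fold change after 24 h of fasting in PC (horizontal) and PP (vertical) for the other pathway genes reported here, coloured by list and filled where edgeR called the gene in 1 or both zones. Mid1ip1, Pklr and Insig1 lie below -2 on both axes, and Insig2 lies above 0 on both.

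The genes most like the set were sought among 6729 others with a mean of at least 10 CPM, by the Pearson correlation over the 18 libraries with the mean standardised log2 CPM of the 10. Above 0.9 there were 18 genes. The first 10 were Slc25a44 (0.960), Frmd8 (0.955), Hcn3 (0.949), Derl2 (0.946), Adipor2 (0.942), Ank (0.940), Pgd (0.935), Pqlc1 (0.932), Rdh11 (0.920) and Actb (0.916). Pgd encodes a dehydrogenase of the pentose phosphate pathway that yields NADPH, and it belonged to the list of acetyl-CoA and NADPH supply. The largest 24 h changes among these 10 were those of Hcn3, a channel subunit, with log2 fold changes of -4.51 in PC and -3.10 in PP.

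Markers of other cells that make fatty acids or share the tissue were low. Plin1, which coats lipid droplets in adipocytes, was at 0 in all 18 libraries, and Adipoq was at most 0.092 CPM. The 5 adipocyte markers summed to 0.845 to 5.14 CPM, nearly all of it Adrb3, which was 3.03 to 4.84 CPM in fed PC and 2.35 to 2.77 in PC after 24 h, with 0.735 to 1.56 in fed PP and 1.79 to 2.35 in PP after 24 h. Kupffer cell and leukocyte markers summed to 0.326 to 18.2 CPM, sinusoidal endothelial markers to 2.63 to 25.8, stellate and fibroblast markers to 0.41 to 12.6 and cholangiocyte markers to 19.3 to 56.7. Of the cholangiocyte markers, Epcam was at 0 throughout and Krt19 was at most 0.506 CPM. The others were present in every library, Krt7 at 11.1 to 20.2 CPM, Spp1 at 5.39 to 25.1 and Sox9 at 2.42 to 17.4. The hepatocyte markers Alb, Apoa1 and Ttr summed to 50127 to 90410 CPM in PC and 102731 to 173471 in PP libraries.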

How the data were processed

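For 18 libraries, the authors deposited estimated counts of each gene in 1 table, made with kallisto 0.46.0 and mm10, per the submitters' processing notes; annotation and use of strand are not given in the sources used here. Estimated counts were rounded to whole numbers. Totals ranged from 18359911 to 26384358, and 0 columns lacked a sample. Replicates were compared for repeats (chi-square per gene 35.0 to 117.2), and none was found.

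Of 28030 genes, 12477 passed filterByExpr and were tested by edgeR 4.0.16 (quasi-likelihood, TMM, robust, R 4.3.3) in 1 fit with 6 group coefficients and 12 contrasts. P-values were Benjamini-Hochberg adjusted over all genes tested, and called under 0.05. The test was checked on simulated counts. CPM use TMM factors, and SE is the log2 fold change divided by the square root of F. Per-kilobase levels use the longest coding transcript of the GENCODE M21 annotation (GRCm38).

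Alternatives were DESeq2 size factors, no filter, a mean of 1 CPM, only the contrast's groups, a block on replicate number, scale factors computed without the top 20 genes, the DESeq2 1.42.0 test, limma-voom (limma 3.58.1) and leaving out each library. Same-numbered PC and PP libraries had correlations of deviations from group means of -0.01 to 0.01 when fed, -0.01 to 0.07 at 8 h and 0.12 to 0.17 at 24 h, where differently numbered ones had -0.12 to -0.02. The labels give no source for this, and a block within the 24 h groups was added.

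The 10 genes and all lists were chosen with earlier results of these data known. Named were the 10, of each pathway list the 2 called genes with the largest 24 h change, Mlxipl, Srebf2, Insig1, Insig2, Mid1ip1 and Slc25a1, and the 10 most correlated genes (prior count 2). Coordinates are of GRCm38. Some genes the rule would name are not reported here.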

Additional observations from a re-analysis of the deposited data

How the results depend on the processing

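Counts of the 10 genes called against fed stayed within 1.5 times under all 8 settings that keep every library and all 18 that leave one out. At 8 h and 24 h they ran 6 to 7 and 8 to 9 in PC and 4 to 6 and 7 to 9 in PP with every library kept, and 6 to 7 and 9 in PC and 4 to 7 and 8 to 9 in PP with one left out. In the step from 8 h to 24 h, PC gave 5 under DESeq2 and 2 to 4 with a library left out, and PP gave 6 in a fit of its own groups, 5 under DESeq2 and 2 to 6 with libraries left out. PP against PC gave 1 under DESeq2 when fed and at 8 h, 1 at 24 h in a fit of its own groups, and when fed 0 to 1 with a library left out. The cause was not tested. The replicate number as a block gave 7 and 9 in PC and 6 and 9 in PP at 8 h and 24 h, 2 and 3 in the step between, and 0 in every zone comparison, so the block changed no count. Among single genes it ended the calls of Slc25a1 in PC and Hsd17b12 in PP at 8 h (adjusted p = 0.0516 and 0.0590). A block within the 24 h groups alone, where same-numbered libraries deviated together, was chosen after seeing the data. It gave 9 in PC and 9 in PP at 24 h and 0 for PP minus PC at 24 h, and of the calls of single genes it changed those same 2 (adjusted p = 0.0544 and 0.0663). Log2 values that changed sign were all uncalled. With every library kept, limma-voom gave -0.32 for Pnpla3 PP minus PC when fed, 0.04 for Me1 at 8 h, -0.00 for Acly and 0.01 for Srebf1 in the zone difference from 8 h to 24 h, and 0.00 for Srebf2 PP 8 h against fed, and the block gave 0.00, and that within 24 h 0.02, for Srebf1 in the same zone difference. Leaving out fed PP replicate 3 and PC 24 h replicate 2 together, and all settings for the pathway genes, were chosen after seeing the data. With libraries left out, values that changed sign had these ranges of log2 values. For PC 8 h against fed they ran Acacb -0.34 to 0.14, Scd1 -0.22 to 0.46, Srebf2 -0.24 to 0.03. For PC 24 h against 8 h they ran Srebf1 -0.58 to 0.23. For PP 8 h against fed they ran Mlxipl -0.27 to 0.40, Srebf2 -0.09 to 0.14, Pklr -0.53 to 0.01. For PP 24 h against fed they ran Scd1 -0.97 to 0.04, Srebf2 -0.02 to 0.21, Slc25a1 -0.18 to 0.04. For PP 24 h against 8 h they ran Srebf1 -0.28 to 0.18. For PP minus PC when fed they ran Acaca -0.15 to 0.46, Fasn -0.42 to 0.23, Thrsp -0.54 to 0.15, Pnpla3 -0.38 to 0.63. For PP minus PC at 8 h they ran Me1 -0.32 to 0.12, Acacb -0.13 to 0.29, Elovl6 -0.15 to 0.63, Srebf1 -0.28 to 0.04. For PP minus PC at 24 h they ran Scd1 -0.47 to 0.19, Srebf1 -0.44 to 0.36, Pnpla3 -0.02 to 1.01. For the zone difference at 24 h they ran Acaca -0.18 to 0.44, Scd1 -0.21 to 0.87, Pnpla3 -0.63 to 0.92. For the zone difference from 8 h to 24 h they ran Acly -0.53 to 0.48, Me1 -0.39 to 0.04, Acacb 0.00 to 0.42, Fasn -0.09 to 0.39, Srebf1 -0.30 to 0.50, Thrsp -0.26 to 0.66. The 3 libraries per group limit the precision of every value.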
